A study of Mus musculus with 8 samples.

Results

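RNA sequencing of 4 mouse fibrosarcoma cell lines was used to describe IL-6 family and IL-33 signalling, taken as 10 genes: the ligands Il6, Il11 and Lif, the receptor chains Il6ra, Il6st, Lifr and Osmr, and the IL-33 and IL-1 axis of Il33, Il1rl1 and Il1r1. The genes were chosen by name as a pathway list and found by their symbol in the deposited gene table. All 10 were among its 18768 genes, each matched to 1 Ensembl identifier. Positions below are those of mm10 (GRCm38.p6).

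Cytokines of the IL-6 family signal through gp130, the shared receptor chain encoded by Il6st. IL-6 and IL-11 first bind their own alpha chain, and LIF and oncostatin M join gp130 to the LIF receptor or the oncostatin M receptor. The joined chains activate JAK kinases and the transcription factor STAT3, whose target Socs3 encodes an inhibitor of the same pathway. IL-33 is an alarmin kept in the nucleus of stromal cells and released on damage. It binds ST2, the product of Il1rl1, which uses the same adaptors and the same route to NF-κB as the IL-1 receptor encoded by Il1r1. Fibroblasts and other mesenchymal cells are known sources of these ligands and carry several of the receptors.

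Each line was established in culture from a tumor that the carcinogen methylcholanthrene (MCA), given under the skin at 100 µg in peanut oil, had induced in a WT or an IRF8 KO mouse. The WT mice were of the C57BL/6 strain. Tumors were taken after about 3 months, and their cells were passaged at least 10 times before use. The lines labelled IRF8 KO were MC010 and MC011, those labelled WT were MC654 and MC659, and each gave 2 libraries. The cells received no treatment in culture that the labels name, and the IRF8 deletion was in the whole mouse from which the tumor came. A line stands for 1 tumor, so that 2 lines stand against 2, and the label cannot be told apart from other differences between tumors. Nothing says that the 2 libraries of a line came from separate cultures. The p-values between lines therefore measure only the spread between libraries, which may be technical. Those between labels pool that spread with differences between the 2 lines of a label. They also count the 4 libraries of a label as independent, although these come from 2 tumors. The libraries held 74063616 to 116206078 counts each. A count of 3, taken as the floor of a library, corresponded to 0.0262 to 0.0408 CPM (counts per 1000000 after scaling by TMM), and floors cover counting error only.

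Irf8, the targeted gene, went against the labels. It had 442 and 347 counts in MC010, 32 and 10 in MC011, 1 and 2 in MC654, and 1 and 0 in MC659. Counts over the whole gene do not show which exons remain. The paper reports PCR genotyping that found MC010 and MC011 to be IRF8 KO and MC654 and MC659 to be WT. Lines are called by their labels, and every direction given below is one of labels. The 8 mesenchymal markers were all in the table, and their summed level was 7300 to 9190 CPM in the libraries labelled IRF8 KO and 6510 to 7920 CPM in those labelled WT, nearly all of it from Vim and collagen genes. Of 9 hematopoietic markers 5 were in the table, at 16.7 to 23.7 CPM in sum against 14.7 to 15.7 CPM, mostly from Cd14 and Cd68. Cd14 was called as higher (log2 difference 1.19, edgeR adjusted p = 0.0017), and Cd68 was lower and not called (−0.58, edgeR adjusted p = 0.00838). Ptprc was at 0.157 and 0.177 CPM in MC010 and at or below 0.024 CPM elsewhere. Laptm5 was at 0.595 and 0.381 CPM in MC010 and at or below 0.0222 CPM elsewhere. Of 7 mast cell markers only Kit, Ms4a2 and Hdc were in the table, and their sum stayed at or below 0.923 CPM. Epithelial keratins differed between lines: the summed level of the list was 34.1 to 565 CPM in the libraries labelled IRF8 KO and 114 to 129 CPM in those labelled WT. Of 6 endothelial markers 5 were in the table, and their sum was 0.873 to 2.24 CPM in the libraries labelled IRF8 KO and 0.465 to 0.683 CPM in those labelled WT, without overlap. Of these Tek was called as higher (log2 difference 2.37, edgeR adjusted p = 0.00575), and so was Tie1, at 0.405 to 1.49 CPM against 0 in the 4 libraries labelled WT (edgeR adjusted p = 0.00218). Pecam1 (−0.69, edgeR adjusted p = 0.336) and Cdh5 (−1.12, edgeR adjusted p = 0.215) leaned lower and were not called. Kdr was not tested, so the list had no common direction. The part of other cell types in the results was not tested.

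Counts of the 4 libraries labelled IRF8 KO were compared with those of the 4 labelled WT by the quasi-likelihood test of edgeR, adjusted after Benjamini and Hochberg over 15153 genes, and the lines were compared pairwise in a second fit over 16703 genes. A gene was called at an adjusted p under 0.05 and a log2 difference above 0.59 in size. All 10 genes passed the filter on low counts in both fits. Between the labels 4 of them were called, with Lifr, Il1r1 and Il6ra higher and Il33 lower in the lines labelled IRF8 KO. In the background 22.5% of all genes tested were called, 13.7% as higher and 8.72% as lower. The median log2 difference was 0.32 over the 10 genes and 0.02 over all genes. Libraries of the 2 labels did not overlap for 5 of the 10 genes, the 4 called ones and Il6, against 42.5% of all genes. In bulk RNA, fewer cells of a type and less RNA per cell cannot be told apart. For a gene without overlap the exact permutation test over libraries (two-sided) gave p = 0.0286, the smallest p that 4 against 4 allows, and 2 lines against 2 cannot go below 0.333.

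**Figure D1:**
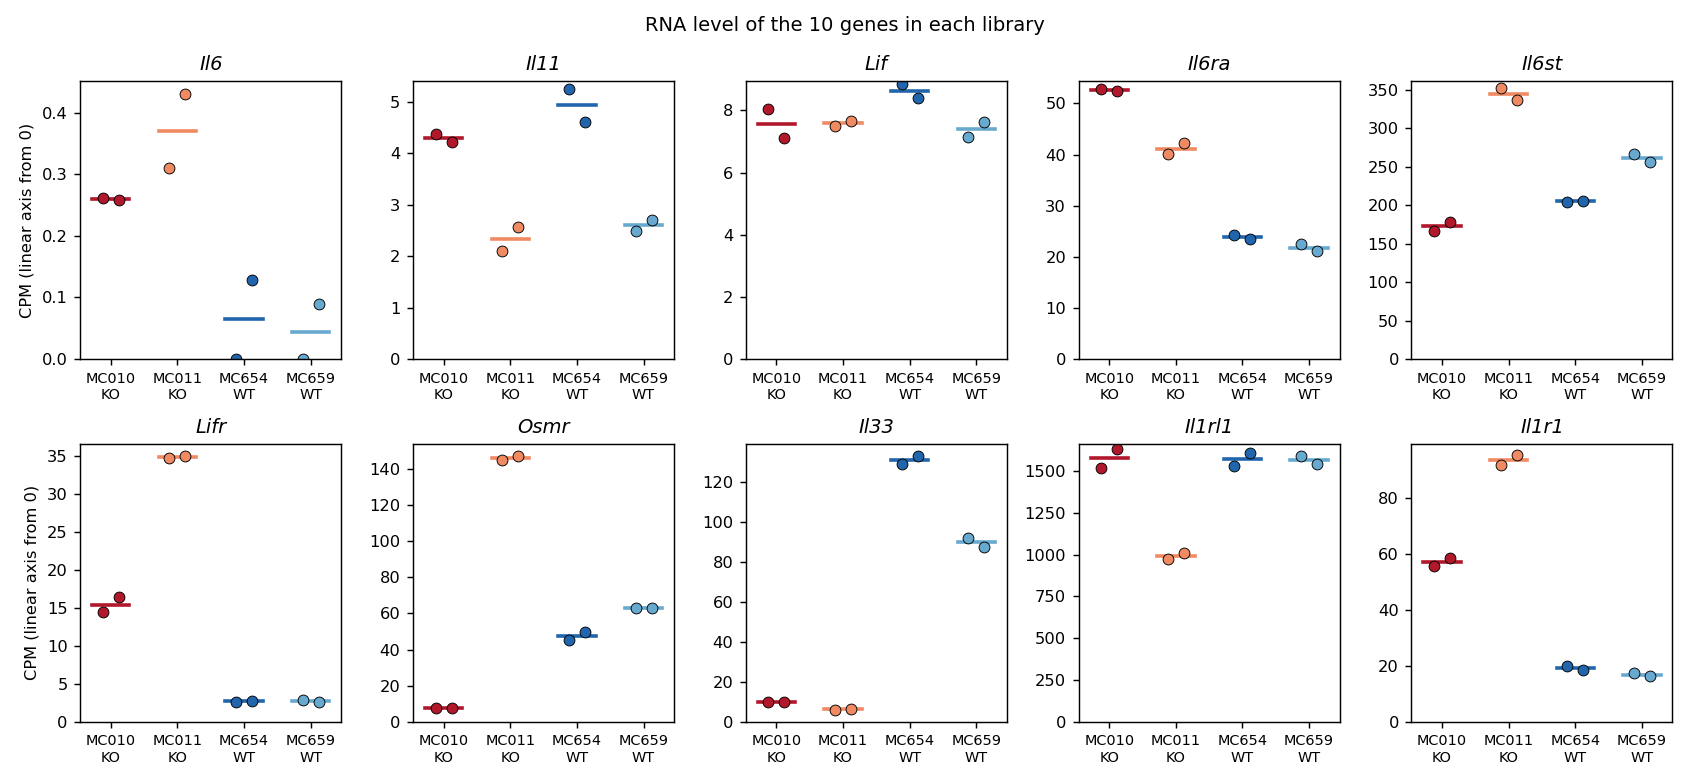
RNA level of the 10 genes in CPM (linear axes from 0, a separate scale for each gene), with 1 point per library, 2 libraries per line, and a bar at the mean of each line. Il33 lies between 6.07 and 9.89 CPM in the lines labelled IRF8 KO and between 87.4 and 133 CPM in those labelled WT, while Osmr is lowest in MC010 and highest in MC011, on both sides of the WT lines.

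Il6 (ENSMUSG00000025746, chromosome 5, 30013114 to 30019981, plus strand) encodes the founding cytokine of the family. Its RNA was low in every line, and in the lines labelled WT it was near or below the floor of 3 counts. It had 30 and 19 counts in MC010, 30 and 34 in MC011, 0 and 11 in MC654, and 0 and 8 in MC659, which is 0.262 and 0.259 CPM, 0.311 and 0.43 CPM, 0 and 0.129 CPM, and 0 and 0.0889 CPM. The libraries labelled IRF8 KO were all above those labelled WT, and 1 library of each WT line had no count, which allows up to 0.036 CPM in MC654 and 0.034 CPM in MC659. The log2 difference between the labels was 2.50 (SE 0.90), with an adjusted p of 0.0606 from edgeR, so the gene was not called. In the fit by line Il6 passed in MC011 against MC654 (log2 2.48, adjusted p = 0.0325), in MC011 against MC659 (3.00, 0.0149) and in MC010 against MC659 (2.51, 0.037), but not in MC010 against MC654 (1.98, 0.0814). Against the mean of the WT lines Il6 passed in both MC010 (log2 2.24, edgeR adjusted p = 0.0191) and MC011 (2.74, edgeR adjusted p = 0.00525). The calls between pairs of lines depended on single libraries. Without the first library of MC659, for example, edgeR's adjusted p for MC011 against MC659 was 0.114, and without the first library of MC654 that for MC011 against MC654 was 0.17. The Il6 promoter is shown because it is the one of the members' promoters that held matches to 3 of the motifs searched. RefSeq places its 250 bases before the start at chr5:30012864-30013113, plus strand, of GRCm38.p6:
Il6 promoter: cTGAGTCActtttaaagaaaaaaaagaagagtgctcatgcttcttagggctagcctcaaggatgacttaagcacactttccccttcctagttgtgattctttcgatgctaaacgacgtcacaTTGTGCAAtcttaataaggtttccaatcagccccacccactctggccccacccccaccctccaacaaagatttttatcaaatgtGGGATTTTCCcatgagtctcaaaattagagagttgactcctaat
Capitals mark, from 5′ to 3′, an AP-1 match (TGANTCA), a C/EBP match (TTGCNNAA, here on the minus strand) and a match to the NF-κB consensus. Both strands were searched, no marked match overlapped another, and of 32851 promoter windows of the same length 6.75%, 9.56% and 7.25% held these motifs. A match is a description of letters and not a bound site.

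Il11 (ENSMUSG00000004371, chromosome 7, 4772373 to 4782857, minus strand), which encodes the cytokine that uses its own alpha chain and gp130 and is made by fibroblasts, differed between lines but not between labels. Its level was 4.38 and 4.23 CPM in MC010, 2.1 and 2.56 CPM in MC011, 5.25 and 4.62 CPM in line MC654, and 2.5 and 2.7 CPM in line MC659. MC010 and MC654 were thus high and MC011 and MC659 low, one line of each label in each pair, with no overlap between the pairs. The label difference was −0.18 (SE 0.34, edgeR adjusted p = 0.711). MC654 exceeded MC659 by 0.92 on the log2 scale (SE 0.15, edgeR adjusted p = 0.000483), and Il11 was the only one of the 10 genes called between the 2 lines labelled WT, where 4.58% of all genes were called. MC010 exceeded MC011 by 0.90 (SE 0.15, edgeR adjusted p = 8.22e-05). The neighbours in the order, MC654 and MC010 (edgeR adjusted p = 0.257) and MC659 and MC011 (0.381), did not pass the test.

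Lif (ENSMUSG00000034394, chromosome 11, 4257557 to 4272514, plus strand), the ligand of the LIF receptor, had the narrowest range of the 10 genes. It measured 8.06 and 7.1 CPM in MC010, 7.51 and 7.67 CPM in MC011, 8.86 and 8.39 CPM in line MC654, and 7.16 and 7.63 CPM in line MC659. All libraries lay close together and the labels overlapped. The label difference was −0.08 (SE 0.12, edgeR adjusted p = 0.634), and none of the 6 differences between lines passed (edgeR adjusted p from 0.136 to 0.962). The largest of these was 0.22 (SE 0.10) between MC654 and MC659.

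Of the other ligands of the family, Osm and Il27 were not among the genes of the table and Ebi3 was below the filter. Clcf1, a cytokine of the CNTF group, was at 105 to 144 CPM in the libraries labelled IRF8 KO and at 37.7 to 48.4 CPM in those labelled WT (log2 difference 1.51, SE 0.12, edgeR adjusted p = 8.12e-05). It was higher than in the 2 WT lines in both MC010 (1.34) and MC011 (1.68). Cntf, at 0.145 to 0.166 CPM against 0.0889 to 0.129 CPM, and Ctf1, at 2.04 to 3.1 CPM against 2.13 to 3.24 CPM, were tested and not called (edgeR adjusted p = 0.106 and 0.882).

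Il6ra (ENSMUSG00000027947, chromosome 3, 89864059 to 89913196, minus strand) encodes the IL-6 receptor alpha chain, which binds the cytokine and can be shed as a soluble receptor. It measured 52.8 and 52.4 CPM in MC010, 40.1 and 42.2 CPM in MC011, 24.3 and 23.4 CPM in line MC654, and 22.5 and 21.1 CPM in line MC659. Every library labelled IRF8 KO lay above every library labelled WT. The mean was 46.9 ± 6.65 CPM (SD, n = 4) in the former and 22.8 ± 1.39 CPM (SD, n = 4) in the latter, a log2 difference of 1.04 (SE 0.11, edgeR adjusted p = 0.000273). MC010 exceeded MC011 by 0.36 (SE 0.06), which is below the fold threshold, and MC654 and MC659 did not pass the test (0.13, edgeR adjusted p = 0.201). The gene overlaps Gm42809 on the plus strand. Whether the counting used strand is not stated, and Gm42809, at 0.96 CPM in MC010, 0.433 CPM in MC011, 0.231 CPM in MC654 and 0.265 CPM in MC659, was far below Il6ra in each line.

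Il6st (ENSMUSG00000021756, chromosome 13, 112464070 to 112510086, plus strand) encodes gp130, the signal-transducing chain of the whole family. It measured 167 and 178 CPM in MC010, 352 and 337 CPM in MC011, 204 and 206 CPM in line MC654, and 266 and 256 CPM in line MC659. MC010 was the lowest and MC011 the highest line, and the libraries labelled WT lay between them. The label difference was 0.15 (SE 0.26, edgeR adjusted p = 0.694). MC011 exceeded MC010 by 0.99 on the log2 scale, a 1.99-fold difference (SE 0.05, edgeR adjusted p = 1.32e-11). Against the mean of the WT lines MC010 stood at −0.42 (SE 0.04) and MC011 at 0.57 (SE 0.04), both with edgeR adjusted p below the threshold (9.41e-08 and 1.54e-09) and both short of the fold threshold.

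Lifr (ENSMUSG00000054263, chromosome 15, 7090614 to 7197489, plus strand) encodes the LIF receptor chain, which pairs with gp130 for LIF and for the CNTF group of ligands. It was at 14.4 and 16.4 CPM in MC010, 34.7 and 35 CPM in MC011, 2.64 and 2.74 CPM in line MC654, and 2.8 and 2.56 CPM in line MC659. The libraries labelled IRF8 KO were all above those labelled WT, and the 2 WT lines were alike to within 0.01 on the log2 scale (SE 0.12). The mean was 25.1 ± 11.3 CPM (SD, n = 4) in the former and 2.68 ± 0.108 CPM (SD, n = 4) in the latter, a log2 difference of 3.23 (SE 0.33, edgeR adjusted p = 0.000241). Lifr rose 5.73-fold in MC010 and 13-fold in MC011 against the WT lines, and MC011 exceeded MC010 by 1.18 (SE 0.08, edgeR adjusted p = 2.4e-09).

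Osmr (ENSMUSG00000022146, chromosome 15, 6813577 to 6874969, minus strand), the oncostatin M receptor chain, lies near Lifr and is read from the opposite strand, yet the lines had another order. It measured 7.85 and 7.78 CPM in MC010, 145 and 147 CPM in MC011, 45.4 and 49.5 CPM in line MC654, and 62.8 and 62.8 CPM in line MC659. MC010 was below and MC011 above all libraries labelled WT. Against the WT lines MC010 was lower by 2.80 (SE 0.06, edgeR adjusted p = 1.17e-16) and MC011 higher by 1.42 (SE 0.04, edgeR adjusted p = 3.31e-14) on the log2 scale. Of all genes tested, 2.63% were called on opposite sides of the WT lines in MC010 and MC011, and Osmr was the only one of the 10. The 2 lines labelled IRF8 KO differed 18.6-fold (log2 difference −4.22, SE 0.06, edgeR adjusted p = 9.74e-18), and the label difference was 0.48 (SE 0.93, edgeR adjusted p = 0.72). Osm, the ligand, was not among the genes of the table.

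Set beside each other per kilobase of exon, the 2 chains that can pair with gp130 changed places. Osmr was at 15.3 to 21.9 times the level of Lifr in the libraries labelled WT, at 3.73 and 3.77 times in MC011, and at 0.487 and 0.42 times in MC010. Il6st exceeded Lifr per kilobase in every library, by 73.2 to 97.5 times in the libraries labelled WT and by 9.38 to 11.4 times in those labelled IRF8 KO. The ratio of Il6st to Osmr was 23.3 and 25.1 in MC010 and between 2.49 and 4.91 in the other libraries. Of the other receptors of the family, Il11ra1 (21.3 to 23.6 CPM against 21 to 29.9 CPM) and Il27ra (0.19 to 0.985 CPM against 0.318 to 0.8 CPM) were tested and neither was called. Cntfr and Il31ra were below the filter, and Il11ra2 was not among the genes of the table. With MC010 left out the filter kept 4 of these receptors and 2 were called as higher, and with MC654 or MC659 left out 1 was.

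**Figure D2:**
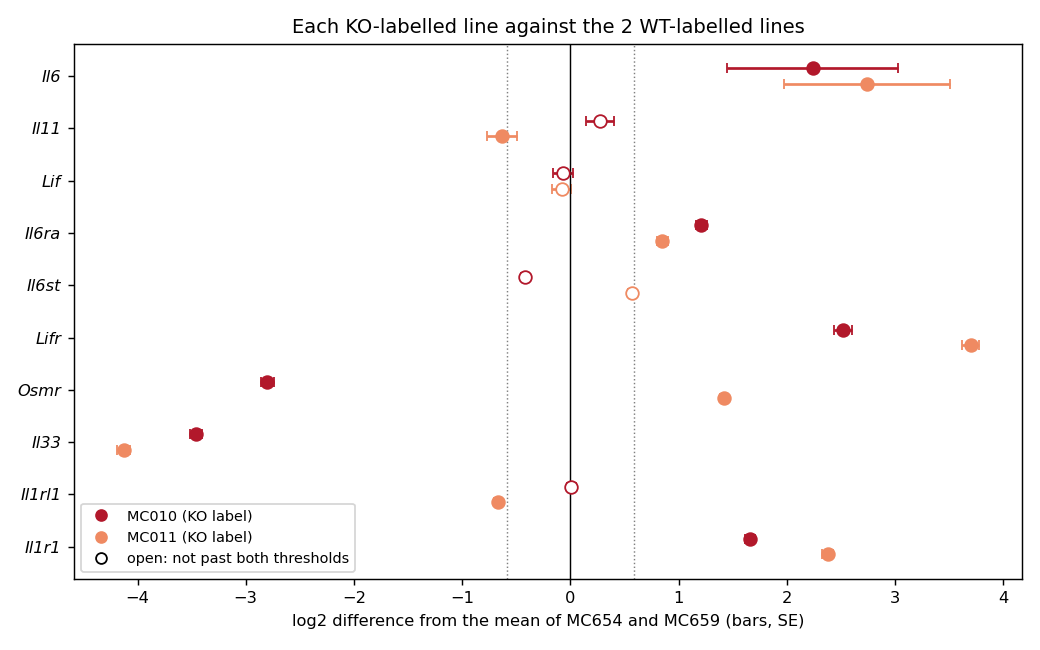
Log2 difference of MC010 (dark) and MC011 (light) from the mean of MC654 and MC659 for each of the 10 genes, with bars of 1 SE, filled points past both thresholds, and dotted lines at the fold threshold of 0.59. Il33, Lifr, Il1r1 and Il6ra lie on 1 side of zero in both lines, past both thresholds. So does Il6, at low counts, with 2.24 in MC010 and 2.74 in MC011. Osmr lies at −2.80 in MC010 and at 1.42 in MC011.

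Il33 (ENSMUSG00000024810, chromosome 19, 29925114 to 29960718, plus strand) encodes IL-33, the ligand of ST2, and had the largest log2 difference between the labels of the 10 genes. It measured 9.89 and 9.76 CPM in MC010, 6.07 and 6.39 CPM in MC011, 129 and 133 CPM in line MC654, and 92.3 and 87.4 CPM in line MC659. The libraries labelled IRF8 KO were all far below those labelled WT. The mean was 8.03 ± 2.08 CPM (SD, n = 4) in the former and 110 ± 24 CPM (SD, n = 4) in the latter, a log2 difference of −3.78 (SE 0.24, edgeR adjusted p = 2.69e-05), or 13.8-fold. Il33 fell against each WT line in each line labelled IRF8 KO, from 9.13-fold in MC010 against MC659 to 21.1-fold in MC011 against MC654. MC010 exceeded MC011 by 0.66 (SE 0.07, edgeR adjusted p = 2.76e-07), and MC654 exceeded MC659 by 0.55 (SE 0.05), short of the fold threshold. Of 7 neighbours tested within 500 kb, edgeR called none, and 2 passed the adjusted p alone, Ermp1 (−0.59, adjusted p = 0.000987) and Uhrf2 (−0.31, adjusted p = 0.0428).

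Il1rl1 (ENSMUSG00000026069, chromosome 1, 40429570 to 40465415, plus strand), which encodes the IL-33 receptor ST2 in a membrane form and a soluble decoy form, was the most abundant of the 10 genes in every line. It measured 1520 and 1630 CPM in MC010, 971 and 1010 CPM in MC011, 1530 and 1610 CPM in line MC654, and 1590 and 1540 CPM in line MC659. MC011 alone was low, and MC010 lay within the range of the WT lines or just beyond it. The label difference was −0.29 (SE 0.17, edgeR adjusted p = 0.225). MC011 was lower than the WT lines by 0.67 (SE 0.04, edgeR adjusted p = 3.83e-10), and for MC010 the difference was 0.01 (SE 0.04, edgeR adjusted p = 0.897). The defining mast cell markers Cpa3, Fcer1a, Mcpt4 and Tpsb2 were not among the genes of the table. The 3 that were did not all share 1 direction, as Ms4a2 and Hdc were lower with the IRF8 KO label and Kit was not. Kit was at 0.809 and 0.823 CPM in MC011 and at 0 in all other libraries, Ms4a2 was at 0.0227 to 0.129 CPM in the libraries labelled WT and at 0 in those labelled IRF8 KO, and Hdc was lower in the latter, at 0.0127 to 0.166 CPM against 0.216 to 0.737 CPM (log2 difference −2.59, edgeR adjusted p = 0.0188). Their part in the level of Il1rl1 was not tested.

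ST2 RNA can start at a distal or a proximal promoter, and the membrane and the soluble form end at different last exons. Counts were summed over the whole gene and tell neither the start nor the form. Both RefSeq starts are shown so that the 2 windows can be compared, at chr1:40429320-40429569 and chr1:40439379-40439628, plus strand, GRCm38.p6:
Il1rl1 distal promoter: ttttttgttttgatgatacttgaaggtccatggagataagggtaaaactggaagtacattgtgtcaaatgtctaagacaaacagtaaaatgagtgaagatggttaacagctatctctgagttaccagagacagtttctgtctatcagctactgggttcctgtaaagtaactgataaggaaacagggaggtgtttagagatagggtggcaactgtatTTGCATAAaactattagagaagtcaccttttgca
Il1rl1 proximal promoter: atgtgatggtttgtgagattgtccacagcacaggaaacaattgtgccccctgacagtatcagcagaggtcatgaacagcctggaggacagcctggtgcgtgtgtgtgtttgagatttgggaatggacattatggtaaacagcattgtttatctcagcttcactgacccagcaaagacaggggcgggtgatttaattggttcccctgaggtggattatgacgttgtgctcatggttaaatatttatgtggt
The capitals in the distal window mark a C/EBP match (TTGCNNAA). The proximal window held no match to the 5 motifs searched, which were STAT (TTCNNNGAA), ISRE (GAAA, any 2 bases, GAAA), AP-1, C/EBP and NF-κB. The distal window had a GC content of 37.6% and no CG pair, and the proximal one 46.4% and 3 CG pairs, where the median GC content over all windows was 52.4%.

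The RNA level of Il33 relative to Il1rl1 differed between the labels. This largely follows from the 13.8-fold difference of Il33 given above, as Il1rl1 was not called (log2 difference −0.29). Counts of Il1rl1 do not separate the membrane receptor from the soluble decoy. Per kilobase of exon, Il1rl1 was at 64.4 to 69.8 times the level of Il33 in the 4 libraries labelled IRF8 KO and at 4.98 to 7.36 times in the 4 labelled WT. The 2 ranges did not overlap. MC010 and MC011 had like ratios, although their levels of both genes differed.

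Il1r1 (ENSMUSG00000026072, chromosome 1, 40225080 to 40317257, plus strand) encodes the signalling receptor of IL-1. It measured 55.8 and 58.6 CPM in MC010, 92.1 and 95.6 CPM in MC011, 20.1 and 18.4 CPM in line MC654, and 17.5 and 16.3 CPM in line MC659. Every library labelled IRF8 KO lay above every library labelled WT, MC011 above MC010. The mean was 75.5 ± 21.2 CPM (SD, n = 4) in the former and 18.1 ± 1.61 CPM (SD, n = 4) in the latter, a log2 difference of 2.06 (SE 0.20, edgeR adjusted p = 0.000183). MC011 exceeded MC010 by 0.71 (SE 0.06, edgeR adjusted p = 2.37e-08), and the WT lines did not pass the test (0.19, edgeR adjusted p = 0.0724).

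The promoters of the 4 genes called between the labels are shown at their RefSeq starts in GRCm38.p6, the first start where there were several. Il33 was read at chr19:29924863-29925112 (plus strand), Lifr at chr15:7129322-7129571 (plus), Il6ra at chr3:89913197-89913446 (minus) and Il1r1 at chr1:40224830-40225079 (plus):
Il33 promoter: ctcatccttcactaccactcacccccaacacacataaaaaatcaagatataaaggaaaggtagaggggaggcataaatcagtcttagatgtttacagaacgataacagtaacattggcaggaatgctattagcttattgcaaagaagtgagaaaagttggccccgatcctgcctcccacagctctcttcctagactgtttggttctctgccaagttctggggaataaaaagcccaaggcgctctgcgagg
Lifr promoter: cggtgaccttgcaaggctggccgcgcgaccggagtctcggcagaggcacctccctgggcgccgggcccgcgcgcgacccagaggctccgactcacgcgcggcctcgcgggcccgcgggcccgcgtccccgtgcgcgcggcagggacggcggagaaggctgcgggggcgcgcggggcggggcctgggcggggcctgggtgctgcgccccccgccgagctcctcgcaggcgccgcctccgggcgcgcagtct
Il6ra promoter: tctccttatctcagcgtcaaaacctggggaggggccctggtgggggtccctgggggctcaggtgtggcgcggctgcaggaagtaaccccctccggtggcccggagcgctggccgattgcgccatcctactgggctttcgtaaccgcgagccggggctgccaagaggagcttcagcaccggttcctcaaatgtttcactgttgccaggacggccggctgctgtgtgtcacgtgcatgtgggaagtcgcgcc
Il1r1 promoter: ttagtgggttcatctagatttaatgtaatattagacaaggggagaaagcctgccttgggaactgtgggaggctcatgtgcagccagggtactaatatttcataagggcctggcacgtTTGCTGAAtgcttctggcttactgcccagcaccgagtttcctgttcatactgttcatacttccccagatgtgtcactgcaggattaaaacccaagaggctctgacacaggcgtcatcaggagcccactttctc
The capitals mark a C/EBP match in Il1r1, and the other 3 windows held no match to the 5 motifs. STAT and ISRE motifs, the latter being the kind of element that interferon regulatory factors recognize, were in 7.02% and 2.98% of all windows and in none of the 15 windows of the 10 genes. That says only that these letters are not in these windows. Lifr and Il6ra had GC contents of 82.4% and 65.2% with 43 and 18 CG pairs, and Il33 and Il1r1 had 45.2% and 48.4% with 4 and 3 CG pairs. The second starts of 3 of these genes had other values. That of Lifr had 50.8% GC and 3 CG pairs and no match, that of Il1r1 had 60.4% and 7 CG pairs and a match to the NF-κB consensus, and that of Il33 had 39.6% and 4 CG pairs and a C/EBP match.

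Il1r1 and Il1rl1 lie in a cluster of IL-1 receptor genes on chromosome 1 with Il1r2, Il1rl2, Il18r1 and Il18rap. Of the 16 other genes of the IL-1 family that were listed, 8 were tested, and the 3 called were Il1rl2, Il18r1 and Il18rap, all 3 from this cluster and all higher in the lines labelled IRF8 KO, where 13.7% of all genes were higher. Il1rl2, the IL-36 receptor, was at 4.85 to 5.64 CPM against 0.419 to 0.73 CPM (log2 difference 3.27, SE 0.21, edgeR adjusted p = 3.02e-05). Il18rap, the accessory chain of the IL-18 receptor, was at 9.34 to 15.6 CPM against 2.57 to 4.38 CPM (1.95, SE 0.25, edgeR adjusted p = 0.000782). Il18r1, its ligand-binding chain, was at 0.239 to 0.939 CPM against 0.153 to 0.276 CPM (1.69, SE 0.44, edgeR adjusted p = 0.0177), with overlap between the labels. The 3 genes lay on both sides of Il1rl1, which was not called.

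Beyond the receptors the direction was mixed. Slc9a4, a sodium-proton exchanger gene 151 kb from the start of Il1rl1, was at 0 to 0.152 CPM in the libraries labelled IRF8 KO and at 0.522 to 0.788 CPM in those labelled WT (log2 difference −3.42, SE 0.77, edgeR adjusted p = 0.00954). Its neighbour Slc9a2 was at 45.9 and 46.7 CPM in MC010 and at or below 0.731 CPM in every other library. Within 500 kb of Il1rl1, 5 of 8 genes tested were higher and 1 lower. The 5 were Slc9a2, high in MC010 alone, and the receptor genes Il1r1, Il1rl2, Il18r1 and Il18rap given above. This count is therefore not separate from those results, and the lower gene was Slc9a4. Around Il33 none of 7 was called. Around Lifr 2 of 5 were higher, among them Egflam, an extracellular matrix gene (2.15 CPM in MC010, 0.909 CPM in MC011, 0.0477 CPM in MC654 and 0 in MC659). In the window of Osmr, which overlaps that of Lifr, 4 of 6 were higher, Lifr among them. In that of Il1r1, which overlaps that of Il1rl1, 4 of 8 were higher and 1 lower. For Lif 3 of 20 were higher, and for Il6ra 2 of 33 were higher and 2 lower. For Il6st 1 of 7 was lower, and for Il6 none of 8 was called. Around Il11 9 of 34 were lower and none higher. The background shares were 13.7% and 8.72%, and genes of one window are not independent.

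**Figure D3:**
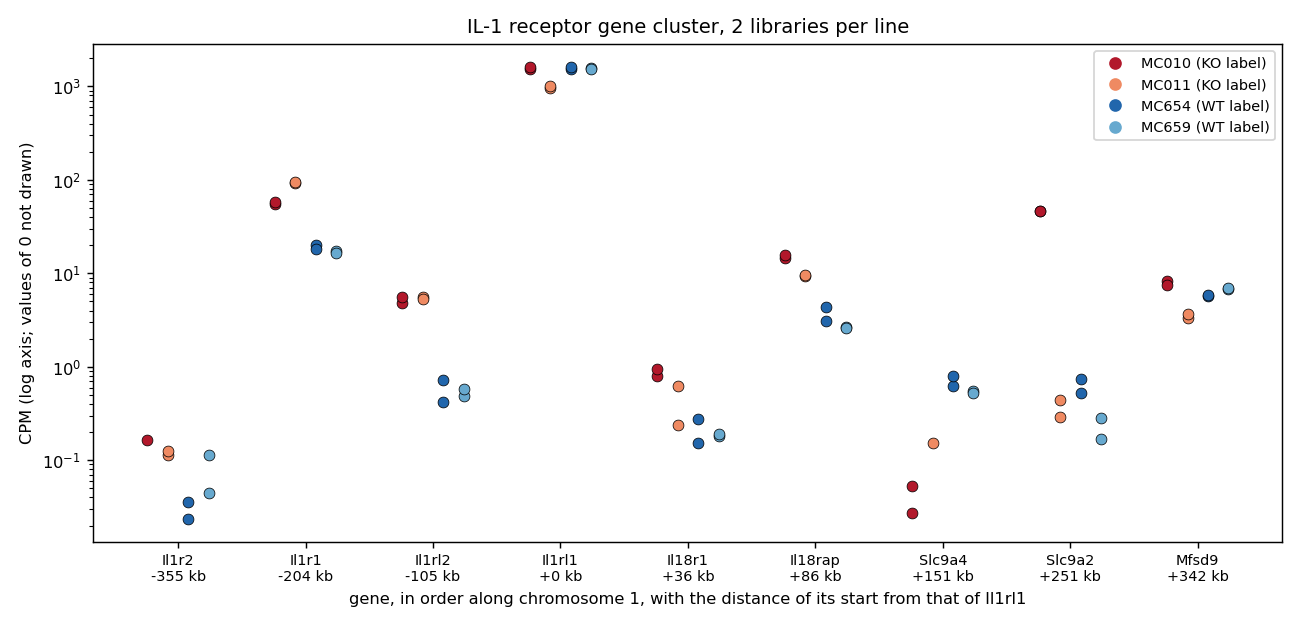
Level in CPM (log axis) of the genes around Il1rl1 on chromosome 1 in their order along the chromosome, 1 point per library, with each gene's distance of start from Il1rl1 in kb under its name; libraries at 0 are not drawn. Il1r1, Il1rl2 and Il18rap are higher in both lines labelled IRF8 KO, Il1rl1 is lower in MC011 alone, and Slc9a2 is higher in MC010 alone.

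Of the ligands and decoys of the IL-1 family, Il1b, Il36a, Il36b, Il36g, Il36rn and Il1f10 were not among the genes of the table, and Il1a and the decoy receptor gene Il1r2 were below the filter. Il1rap, the accessory chain that both IL-1 and IL-33 receptors need, was at 47.1 to 71 CPM against 33 to 46.4 CPM (0.55, SE 0.18, edgeR adjusted p = 0.0443), short of the fold threshold. Sigirr, which encodes an inhibitory receptor of the family, was at 0.891 CPM in MC010 and between 9.46 and 13.4 CPM in the other lines (means of 2 libraries). It was not called between the labels (−1.25, edgeR adjusted p = 0.253).

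With MC011 left out, 3 of the family's genes were called as higher and 2 as lower, and with MC659 left out 2 as higher.

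Of 13 genes of IL-1 receptor signalling, from Myd88 to the IKK and NF-κB subunits, 2 were called, both higher (median log2 difference 0.22), a share near the 13.7% of all genes called as higher, and with MC011 left out 3 were higher and 1 lower. Irak3, which encodes an inhibitory kinase homologue of the pathway, was at 2.69 to 7.58 CPM against 0.318 to 0.635 CPM (3.30, SE 0.43, edgeR adjusted p = 0.000762). Rela, the p65 subunit of NF-κB, was at 144 to 161 CPM against 79.9 to 85.3 CPM (0.89, SE 0.05, edgeR adjusted p = 1.65e-05) and was the same in MC010 and MC011 to within 0.01.

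Of 13 NF-κB response genes, 11 were called and all of these were higher in the lines labelled IRF8 KO, with a median log2 difference of 1.90 against 0.02 over all genes. The share of all genes called as higher was 13.7%. This list, like the others, was chosen with earlier results of these data known, so the comparison with all genes is not an independent test. Mmp3, a stromal protease gene, was at 41.3 to 58.5 CPM against 0.0111 to 0.0941 CPM. Cxcl5, which encodes a neutrophil chemokine, had no count in the 4 libraries labelled WT and 0.227 to 9.08 CPM in those labelled IRF8 KO. Against a floor of 3 counts per library its level in MC010 was at least 10.3-fold higher and that in MC011 at least 237-fold higher, and the median of the list with Cxcl5 at its bound was also 1.90. Cxcl1, a chemokine gene of the same group, was at 7.49 to 21 CPM against 0.4 to 0.567 CPM (4.95, SE 0.44, edgeR adjusted p = 0.000132). Relb (0.58, edgeR adjusted p = 0.000684) fell short of the fold threshold, and Ptgs2 was not called (1.02, edgeR adjusted p = 0.201). Its means of MC010, at 497 CPM, and MC011, at 100 CPM, lay on either side of 175 CPM in MC654 and 121 CPM in MC659. With MC010 or MC011 left out 10 of the 13 were called, and 5 without MC654 or 7 without MC659. Between the 2 lines labelled IRF8 KO, 8 of the 13 were higher and 1 lower in MC011, where 16.3% of all genes were higher and 16.3% lower.

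Of 11 JAK-STAT3 transducers and inhibitors 4 were called, all higher, with a median log2 difference of 0.29, where 13.7% of all genes were called as higher. With MC011 left out 5 were called and with MC654 or MC659 left out 2. Of the 4, 3 were inhibitors of the SOCS family and the other a kinase. Cish was at 6.33 to 10.6 CPM against 3.46 to 3.94 CPM (1.22, edgeR adjusted p = 0.00138). Socs3, a direct STAT3 target that blocks gp130, was at 41.6 to 52.1 CPM against 18.7 to 23 CPM (1.18, SE 0.10, edgeR adjusted p = 9.66e-05). Jak2 was at 64 to 121 CPM against 38.6 to 43.3 CPM (1.15, SE 0.21, edgeR adjusted p = 0.00409). Stat3 itself was at 61.5 CPM in MC010, 130 CPM in MC011, 86.4 CPM in MC654 and 93.7 CPM in MC659 (means of 2 libraries), the same order of line means as Il6st and Osmr. It was chosen for mention after its values were seen, and its label difference was 0.09 (edgeR adjusted p = 0.831).

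Of 16 STAT3 response genes 12 were tested between the labels and 3 were called, all higher: Saa3, Cebpd and Bcl3. Of all genes 22.5% were called, so that the share of the list was near the background. Saa3, an acute phase gene, was at 0.736 CPM in MC010 and 41.5 CPM in MC011 against 0.196 CPM in MC654 and 1.06 CPM in MC659 (means of 2 libraries). Bcl3, an atypical IκB gene, was at 3.88 CPM in MC010 and 14.6 CPM in MC011 against 2.48 CPM and 3.51 CPM. Cebpd, the transcription factor gene of the acute phase response, was at 9.42 to 25.1 CPM against 1.25 to 3.28 CPM (2.86, SE 0.42, edgeR adjusted p = 0.00128). In the fit by line 14 of the list were tested, and 7 were higher in MC011 than in MC010 and none lower. Of all genes 16.3% were higher and 16.3% lower in that comparison. Against the WT lines 7 were higher and 1 lower in MC011, and 3 were higher and 1 lower in MC010, where 18.4% and 20.6% of all genes were higher and 12.9% and 16.5% lower. The lower gene was Myc in both, named after its values were seen, at 115 CPM in MC010, 494 CPM in MC011, 793 CPM in MC654 and 885 CPM in MC659 (means of 2 libraries). Lcn2, below the filter between the labels, averaged 4.95 CPM in MC011 and 0.0423 CPM in MC010 and had no count in the WT lines. Between the labels, with MC010 left out 7 were higher and 1 lower, with MC011 left out 1 was higher and 1 lower, and with MC654 or MC659 left out 1 was called, as higher.

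**Figure D4:**
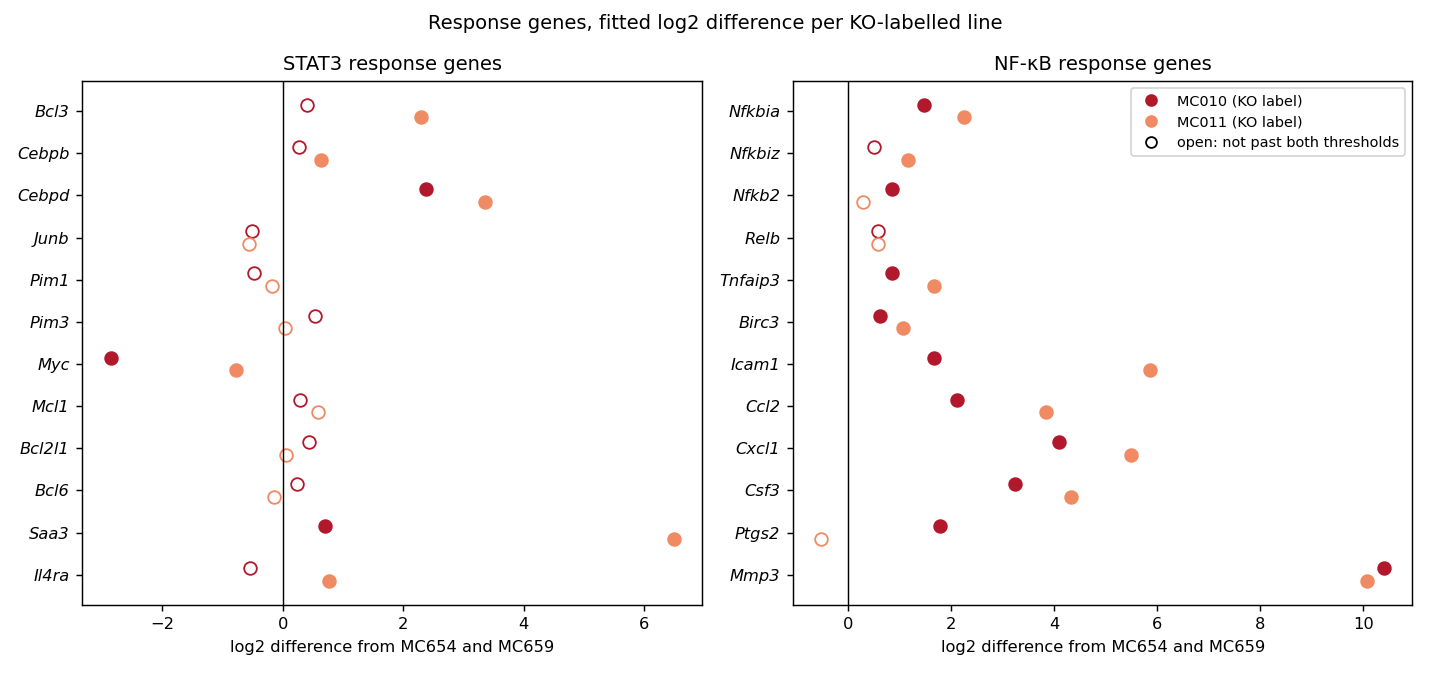
Fitted log2 difference of MC010 (dark) and MC011 (light) from the mean of MC654 and MC659 for STAT3 response genes (left) and NF-κB response genes (right), filled where past both thresholds; Lcn2, Hp and Cxcl5, with no count in the WT lines, are not drawn. Most NF-κB response genes lie right of zero in both lines, and Saa3 and Bcl3 lie farther right in MC011.

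Of 5 shedding enzymes and regulators of Il6 mRNA, 1 was higher and 1 lower, where 13.7% and 8.72% of all genes were. Arid5a, which encodes a protein that stabilizes Il6 mRNA, was at 25.7 to 35.2 CPM against 14.4 to 18.1 CPM (0.87, SE 0.13, edgeR adjusted p = 0.00132). Zfp36, which encodes an mRNA-destabilizing protein, was at 20.3 to 25.2 CPM against 29 to 36.5 CPM (−0.60, SE 0.10, edgeR adjusted p = 0.00247). Adam10 and Adam17, the proteases that shed receptors such as the IL-6 receptor, were at 161 to 192 CPM against 175 to 193 CPM and at 74.9 to 111 CPM against 111 to 119 CPM, and neither was called. With MC011 or MC659 left out 1 gene of the list was called.

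Per kilobase of exon, the order of the 10 genes within a line was headed by Il1rl1 (228 CPM per kb in MC010, 144 in MC011, 228 in MC654 and 227 in MC659) and closed by Il6 (0.107, 0.152, 0.0267 and 0.0183 CPM per kb). Il33 had rank 2 in MC654 and MC659, at 45.5 and 31.1 CPM per kb, rank 5 in MC010 at 3.41 CPM per kb and rank 7 in MC011 at 2.16 CPM per kb. Il6st had rank 2 in the lines labelled IRF8 KO and rank 3 in those labelled WT. The order was the same in MC654 and MC659 but for Il11 and Lif.

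Across the pairs of lines, 37 of 60 differences of the 10 genes were called. Between MC010 and MC011 7 genes were called, 3 higher and 4 lower in MC010, where 32.6% of all genes were called. Between MC654 and MC659 it was Il11 alone. MC010 differed from MC654 in 5 genes (background 35.8%) and from MC659 in 8 (36.7%), and MC011 differed from MC654 in 9 (29.9%) and from MC659 in 7 (30.5%). These comparisons share libraries. Il33, Lifr, Il1r1 and Il6ra passed in the 4 pairs that set an IRF8 KO label against a WT label, each in one direction.

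For the 5 genes whose line means spanned at least 2 on the log2 CPM scale, the nearest patterns were sought among 10689 genes by the root mean square difference of centred log2 CPM over the 8 libraries. Nearest to Il1r1 were Rcan1 (0.10) and Nfkbia (0.11), the latter of which encodes the NF-κB inhibitor IκBα. Nfkbia averaged 39.6 CPM in MC010, 68.5 CPM in MC011, 14.8 CPM in MC654 and 14.1 CPM in MC659. Lifr was nearest to Cda (0.19) and Serpinb8 (0.22), Osmr to Slc35f2 (0.20) and Hist1h1c (0.26), and Il33 to Fgf2 (0.29) and Unc5a (0.36). Fgf2, a fibroblast growth factor gene, averaged 7.7 CPM in MC010, 8.41 CPM in MC011, 121 CPM in MC654 and 84.2 CPM in MC659. For Il6, at its low counts, the nearest genes were farther away (Coro2a, 0.61, and Tmeff2, 0.79). With 4 lines, many genes can share an order, and likeness here is a description.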

How the data were processed

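RNA was sequenced from 8 libraries of 4 lines. Per the labels, libraries were made with a stranded mRNA kit. The authors aligned reads to mm10 with STAR and counted them per gene with HTSeq (STAR 2.7.3a, HTSeq 0.11.2 and GRCm38.p6 in the submitters' processing notes), and deposited raw counts per gene and library. Whether the counting used strand is not given in the sources used here. The authors' signal (counts divided by a DESeq2 size factor) and their own comparison, deposited as log2 fold changes, a score (the Wald statistic) and p-values, were not used. Each gene of the table had at least 20 counts in sum. No chromosome was left out of the fits, and X and Y were not looked at separately. No column of per-sample values was left unmatched.

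The main tests used edgeR 4.0.16 under R 4.3.3 (filterByExpr, TMM, robust quasi-likelihood test, Benjamini-Hochberg adjustment over all genes tested), by label and with 1 group per line. Standard errors were derived from the log2 difference and the F statistic. Levels are CPM, and CPM per kb of exon where genes are compared. A GENCODE vM21 annotation of GRCm38.p6 held 18742 of the 18768 gene identifiers. Promoters (250 bases before the start, RefSeq, GRCm38.p6) were found for all 10 genes, with 15 starts, and only bases before the start were used. The fits were tested on simulated counts. With 74063616 to 116206078 counts per library, 3 counts are 0.0262 to 0.0408 CPM.

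The 10 genes and the lists were chosen with earlier results of these data known. Genes named beside them were, of each list, up to 3 per direction with the largest called difference, genes within 500 kb, and the 2 nearest patterns of genes spanning at least 2 (log2 CPM). Other genes of the lists that are named were chosen after their values were seen. Alternatives were DESeq2 1.42.0, other size factors, no filter, counts added per line, limma-voom 3.58.1 with lines as random blocks, a block for the library number, no fold threshold, and each library or line left out. Leaving out lines for the lists was added after seeing the data. An item of the lists is not reported here.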

Additional observations from a re-analysis of the deposited data

Results flagged for a closer look

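Of the 10 genes, 7 were marked because their difference from the WT lines was unequal in the 2 lines labelled IRF8 KO, tested as the difference between MC010 and MC011 (edgeR, 1 group per line). On the log2 scale, MC010 minus MC011 was 0.90 for Il11, −0.99 for Il6st, −1.18 for Lifr, −4.22 for Osmr, 0.66 for Il33, 0.67 for Il1rl1 and −0.71 for Il1r1. Osmr lay on opposite sides of the WT lines in MC010 and MC011 and was called on both. Il6st also lay on opposite sides, at −0.42 and 0.57, short of the fold threshold. Lifr and Il1r1 were higher and Il33 lower than in the WT lines in both lines, by unequal amounts, and Il1rl1 and Il11 were called against the WT lines in MC011 and not in MC010. The lines also differed in Irf8 RNA, which averaged 4.29 CPM in MC010 against 0.23 CPM in MC011, and in keratins. The part of these in the differences was not tested. Among 20 groups of 4 libraries (10 genes, 2 labels) no single library stood apart.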

How the results depend on the processing

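The 4 genes called between the labels, Il33, Lifr, Il1r1 and Il6ra, kept their direction under every alternative run and were called in all of them but one. With counts added per line, which leaves 2 sums against 2, edgeR called 0 of the 10 genes and 0 of all genes (5 and 3658 at an unadjusted p under 0.05), with adjusted p of 0.068 for Il33, 0.0946 for Lifr, 0.0906 for Il1r1 and 0.107 for Il6ra. Over all genes, 3404 were called, 1876 by limma-voom with lines as random blocks, 5827 without MC011, 2079 without MC654, 1884 without MC659 and 5675 by the adjusted p alone. Leaving out 1 library at a time gave 2908 to 3623 genes, 4 to 4 of the 10 genes and 34 to 38 of their 60 line differences. Without MC010 the calls over all genes also rose, to 4735, and 7 of the 10 were called, Il6 (2.71), Il1rl1 (−0.68) and Osmr (1.39) being added. Osmr turned to −0.75 by limma-voom, ranged from −0.04 to 0.86 with 1 library left out (−0.03 and −0.04 without either library of MC011) and turned to −2.82 without that line (edgeR adjusted p = 1.9e-06). Il6st ranged from −0.04 to 0.31 with 1 library left out (−0.04 and −0.00 without either library of MC011) and was −0.44 without MC011 and −0.02 without MC654, Il11 ranged from −0.35 to 0.01 (the latter without the first library of MC654) and was 0.18 without MC011 and 0.35 without MC654, and Lif was 0.03 without MC654. The cause was not tested. DESeq2 called 3839 genes, 4 of the 10 and 34 line differences, and lost those of Il6 (adjusted p from 0.194 to 0.292).

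Whether libraries of the same number share a batch is not stated. The deviations of same-numbered libraries correlated at −0.24 to 0.37 over 6 pairs of lines, a range that does not decide it. With a replicate block for the library number, 3106 genes, 5 of the 10 (Il6 added, 2.99, edgeR adjusted p = 0.0421) and 38 line differences were called. Il6, at 0 to 34 counts, is limited by depth, and its calls are the least certain.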
